A study of Homo sapiens with 15 samples.

Results

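The comparison described here set KDAC7 H709A against KDAC4 H976Y in HT1080 cells. HT1080 is an established human fibrosarcoma line. In the first group the cells' own KDAC7 (gene HDAC7) carried H709A, a change that inactivates the enzyme, and in the second group the cells' own KDAC4 (gene HDAC4) carried H976Y. The series calls its variants inactivated or enhanced, and H976Y is taken here as enhanced because this histidine-to-tyrosine change is known to raise the activity of class IIa enzymes. Each group had 4 samples, so that 8 of the 15 samples of the series were compared. They were taken by the genotype in their labels. The series title calls the expression endogenous. The variant cells received no treatment, and every sample was total RNA depleted of ribosomal RNA. The other samples were on neither side of the comparison. They entered the choice of genes tested, the scaling of the libraries and the estimate of the spread. They were 3 usable libraries of KDAC4 H803A, an inactive form, and 3 of wild-type cells given 1 µM TMP195, an inhibitor of class IIa deacetylases, for 2 days. No untreated wild-type cells were analysed here. The 2 groups differ in which enzyme is changed and in whether the change inactivates or enhances it, and these cannot be told apart here. The labels do not say whether a variant is 1 clone or whether the samples came from separate cultures. The p-values below therefore rest on the spread among these libraries alone, and that spread may be technical.

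Class IIa deacetylases shuttle between nucleus and cytoplasm. In the nucleus they bind MEF2 transcription factors and bring NCOR and HDAC3 corepressor complexes to the genes that MEF2 occupies, and phosphorylation by CaMK, SIK and protein kinase D enzymes creates docking sites for 14-3-3 proteins that hold them outside. Their own catalytic activity is weak because a histidine stands where other deacetylases have a tyrosine. Much of what they do is attributed to the complexes they recruit, and which transcripts depend on the catalytic site itself is the question such point changes address.

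The 4 KDAC7 H709A libraries were unlike one another. Total counts were 10391409, 9982012, 14627065 and 24297487 in KDAC7 H709A replicates 1 to 4, and 8238300, 11343879, 11211826 and 6151383 in KDAC4 H976Y replicates 1 to 4. Values per gene are counts per 1000000 of the scaled library (CPM), and 1 CPM stood for 10.4 to 23.9 counts in KDAC7 H709A and for 4.86 to 9.4 counts in KDAC4 H976Y. Over 11626 well expressed genes, the median absolute log2 difference between KDAC7 H709A replicates 2 and 3 was 0.23, and 0.731% of genes differed more than 2-fold. Replicate 1 differed from replicates 2, 3 and 4 by 0.64, 0.83 and 0.84, with 29.1% to 41.6% of genes beyond 2-fold. Replicate 4 differed from the library labelled KDAC4 H803A replicate 1 by 0.07, with 0.112% of genes beyond 2-fold and 2.1 times the variance of Poisson counting. The lowest value of replicate 4 within its own group was 0.24. Replicate 1 differed from KDAC4 H803A replicates 3 and 2 by 0.25 and 0.28, less than from any library of its own group. The KDAC4 H976Y libraries differed from each other by 0.10 to 0.40. Each of replicates 1 and 4 was thus closest to a library labelled as another genotype. KDAC4 H803A replicate 1 in turn differed from KDAC4 H803A replicates 2 and 3 by 0.9 and 0.92. It differed from KDAC7 H709A replicates 2 and 3 by 0.33 and 0.24. Up to 2 of the 4 libraries labelled KDAC7 H709A may not be of that genotype, or KDAC4 H803A labels may be wrong. The likeness may also have arisen otherwise. Its source was not tested, and the counts cannot settle it. All libraries are kept under their labels, KDAC7 H709A below means the libraries so labelled, and values are given library by library. The median SD of log2(CPM + 1) over the tested genes was 0.45 in KDAC7 H709A and 0.24 in KDAC4 H976Y.

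**Figure D1:**
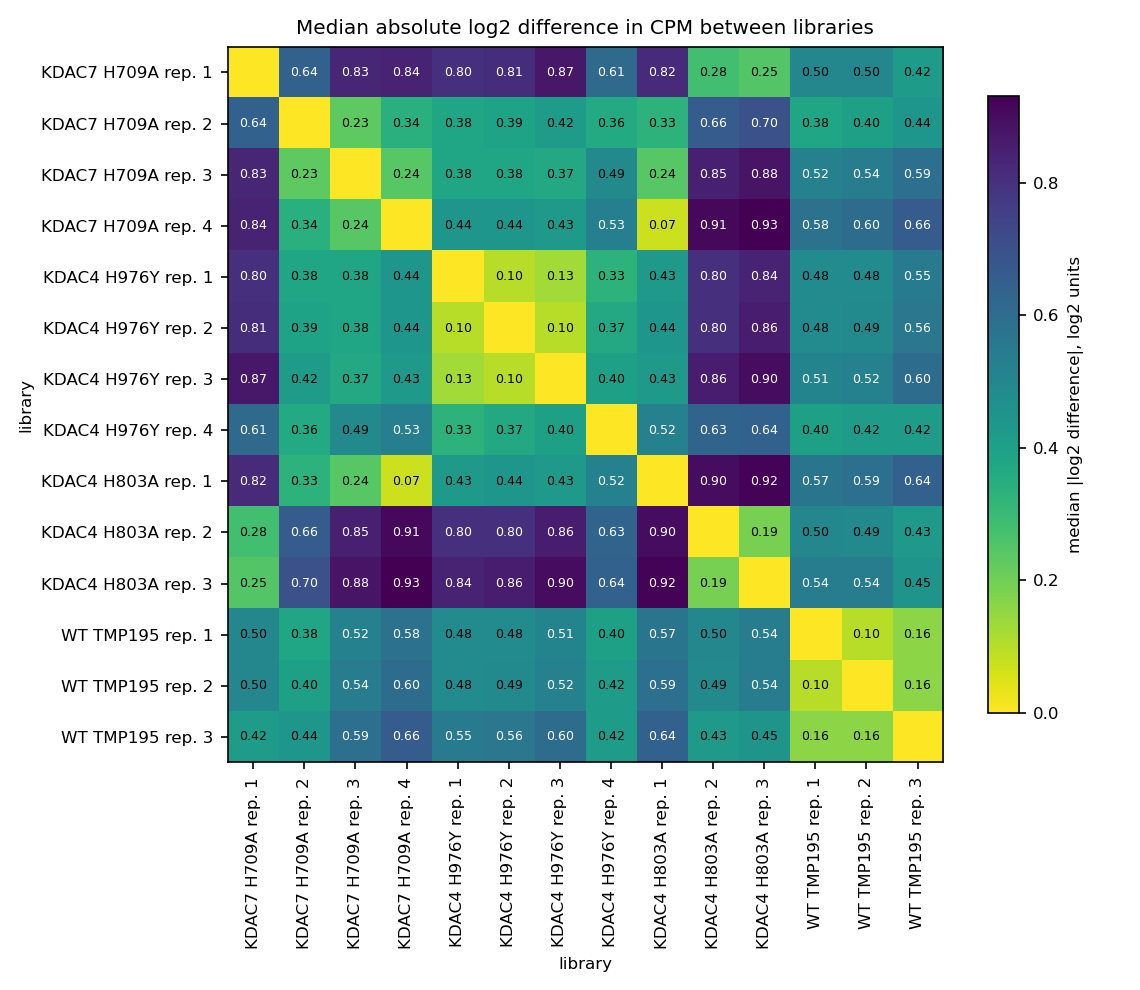
Median absolute log2 difference in CPM between every pair of the 14 count libraries over 11626 genes, with KDAC7 H709A first. Darker cells are less alike. KDAC7 H709A replicate 4 and the library labelled KDAC4 H803A replicate 1 stand at 0.07, while KDAC7 H709A replicate 1 stands at 0.64 to 0.84 from the rest of its group.

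Other measures moved with the groups too. Mitochondrial ribosomal RNA took at most 0.345% of counts in KDAC7 H709A and 16.1% to 31.5% in KDAC4 H976Y, small nucleolar RNA 0.0189% to 0.0554% and 0.722% to 0.913%, and mitochondrially encoded mRNA 3.72% to 11.8% and 0.676% to 1.41%. As deviations from each gene's mean over the libraries, the median log2 level of GC-rich genes (above the upper quartile of GC content) minus that of GC-poor genes (below the lower quartile) was 1.02, -0.41, -0.86 and -1.02 in KDAC7 H709A replicates 1 to 4 and -0.26 to -0.51 in KDAC4 H976Y. In KDAC4 H803A replicates 1 to 3 this measure was -0.99, 1.24 and 1.12. Its part in the likeness of libraries across genotypes was not tested. With mitochondrial and non-coding genes left out of library sizes and tests, 2172 of 13279 protein-coding nuclear genes were called, 1256 higher and 916 lower. GC content and length were tested by offsets in the fit. Mesenchymal markers were present, with 3529, 5351, 5516 and 5526 CPM of vimentin (VIM) in the KDAC7 H709A libraries, against 3739, 3928, 3967 and 2690.0 CPM in the KDAC4 H976Y libraries. The mesenchymal markers S100A4, THY1 and FAP averaged less than 1 CPM in both groups. The epithelial genes EPCAM and CDH1, the blood gene PTPRC and the endothelial gene ERG averaged less than 1 CPM in both groups. Other markers of these cell types were detected. Summed blood markers reached 263 CPM in KDAC7 H709A and 62.0 CPM in KDAC4 H976Y. Epithelial markers reached 13.8 and 4.74 CPM, and endothelial markers 15.3 and 16.0 CPM.

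A gene was called at a Benjamini-Hochberg adjusted p under 0.05 in edgeR's quasi-likelihood test over all 17780 genes tested, and "higher" and "lower" below refer to KDAC7 H709A relative to KDAC4 H976Y. Values after ± are the SE of a log2 fold change. Of these genes 2218 were called, which is 12.5%. With inactive KDAC7 1295 of them were higher, 7.28% of those tested, and 923 were lower, 5.19%. Libraries of the groups did not overlap for 2042 of the calls and for 20.1% of all genes tested. Without KDAC7 H709A replicates 1 and 4 the number was 1677 of 18458 genes, or 9.09%, with 942 higher (5.1%) and 735 lower (3.98%), and 1282 genes were called both times, all of them in the same direction. These 2 fits share KDAC7 H709A replicates 2 and 3 and all KDAC4 H976Y libraries, so a shared direction was likely from the start. Without replicates 2 and 3 it was 1780 of 18443, or 9.65%, with 1128 higher (6.12%) and 652 lower (3.54%). Between the fit without replicates 1 and 4 and this one, 212 genes called in at least 1 of them had opposite signs. Of the genes called in both of these fits, 12 had opposite signs. Across all 3 fits 872 genes were called, 559 higher and 313 lower. The transcripts that were higher included the serum-response and ERK feedback genes EGR1, DUSP5 and SPRY4, the YAP targets CYR61 and CTGF, several HOX genes, the class IIa deacetylase HDAC9 and 12 of the 13 mitochondrially encoded mRNAs. The prostaglandin genes PTGS2 and PTGES, the interleukins IL1A, IL1B and IL11, several adhesion and matrix genes and some ribosomal protein and respiratory chain mRNAs were lower. In bulk RNA, fewer cells that express a gene and less of its RNA per cell cannot be told apart.

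The transcripts of the targeted genes differed among the KDAC7 H709A libraries themselves. HDAC7 (ENSG00000061273, chromosome 12, 47782722 to 47833132 on GRCh38, minus strand) had 422, 88.0, 68.5 and 222 CPM in KDAC7 H709A replicates 1 to 4, against 70.4, 66.7, 64.5 and 74.97 CPM in KDAC4 H976Y. Replicates 1 and 4 lay above the KDAC4 H976Y range, replicate 2 slightly above it and replicate 3 within it. HDAC7 was called with all 4 libraries (log2 fold change 1.53 ± 0.43 at an adjusted p = 0.0344), but its log2 fold change without replicates 1 and 4 was 0.19 at an adjusted p = 0.554. HDAC7 was not called when any 1 of KDAC4 H976Y replicates 1, 2, 3 and 4, KDAC7 H709A replicates 1 and 4 and WT TMP195 replicates 1, 2 and 3 was left out (adjusted p up to 0.096 with 1 library left out, and 0.000237 to 0.629 over the alternatives). HDAC4 (ENSG00000068024, chromosome 2, 239048168 to 239401654, minus strand) had 40.1, 7.29, 4.45 and 18.5 CPM in KDAC7 H709A, against 15.2, 15.6, 15.9 and 21.8 CPM in KDAC4 H976Y. Replicate 1 was above the KDAC4 H976Y range, replicates 2 and 3 were below it and replicate 4 was inside it. HDAC4 was not called with all 4 libraries (log2 fold change 0.04 ± 0.52 at an adjusted p = 0.977) and was lower without replicates 1 and 4 (-1.53 at an adjusted p = 0.0162, 0.000116 to 1 over the alternatives). Because each variant changes 1 amino acid, transcript levels do not check the labels.

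HDAC9, the class IIa member that MEF2 itself activates, was called with inactive KDAC7 in every alternative run. HDAC9 (ENSG00000048052, chromosome 7, 18086949 to 19002416, plus strand) had 79.4, 94.3, 118 and 121 CPM in KDAC7 H709A, against 33.9, 32.6, 33.2 and 29.04 CPM in KDAC4 H976Y (log2 fold change 1.68 ± 0.29 at an adjusted p = 0.00236). The lowest KDAC7 H709A library was well above the highest KDAC4 H976Y library. HDAC5, the remaining class IIa member measured, had 65.5, 53.9, 42.6 and 39.8 CPM in KDAC7 H709A, against 36.7, 32.02, 34.1 and 31.3 CPM in KDAC4 H976Y. Its libraries did not overlap either, but it was not called (log2 fold change 0.59 ± 0.21 at an adjusted p = 0.084). Of 25 tested class IIa deacetylases, corepressor subunits, kinases and 14-3-3 genes, 4 were higher and 0 lower, 16% beside the 12.5% of all genes, and the list median log2 fold change was 0.26, beside 0.09 over all genes tested. The list had 2 higher and 1 lower of 25 tested without replicates 1 and 4, beside 5.1% and 3.98% of all genes. The calmodulin-dependent kinase CAMK1, which phosphorylates class IIa deacetylases, had 15.8, 7.29, 5.45 and 14.3 CPM in KDAC7 H709A, against 3.52, 2.98, 3.14 and 2.27 CPM in KDAC4 H976Y (log2 fold change 1.84 ± 0.37 at an adjusted p = 0.00636). Its call was lost without replicates 1 and 4 (1.10 at an adjusted p = 0.074, 9.23e-05 to 0.159 over the alternatives). The corepressor subunit TBL1X was also higher (log2 fold change 0.71 ± 0.16 at an adjusted p = 0.0118), with 70.6, 92.0, 86.6 and 111 CPM in KDAC7 H709A and 54.5, 59.6, 56.4 and 49.4 CPM in KDAC4 H976Y. It was not called without replicates 2 and 3 (0.73 at an adjusted p = 0.0571) or with no filter on low counts (adjusted p 1.62e-05 to 0.0571 over the alternatives). The 14-3-3 gene YWHAZ, the member with the most counts, was not called (log2 fold change 0.31 ± 0.48 at an adjusted p = 0.737), with 178, 448, 600.2 and 652 CPM in KDAC7 H709A and 387, 405, 436 and 285 CPM in KDAC4 H976Y. Of 18 tested other lysine deacetylases and subunits of their complexes, edgeR's quasi-likelihood test called 0. Of these 18, 3 had an unadjusted p under 0.05, and DESeq2 called 2 and limma-voom with quality weights 8. Over all 17780 genes tested the counts were 4816, 3394 and 7278 in the same order. The nucleosome remodeller CHD4, the most abundant of these, was not called (log2 fold change -0.15 ± 0.17 at an adjusted p = 0.615).

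**Figure D2:**
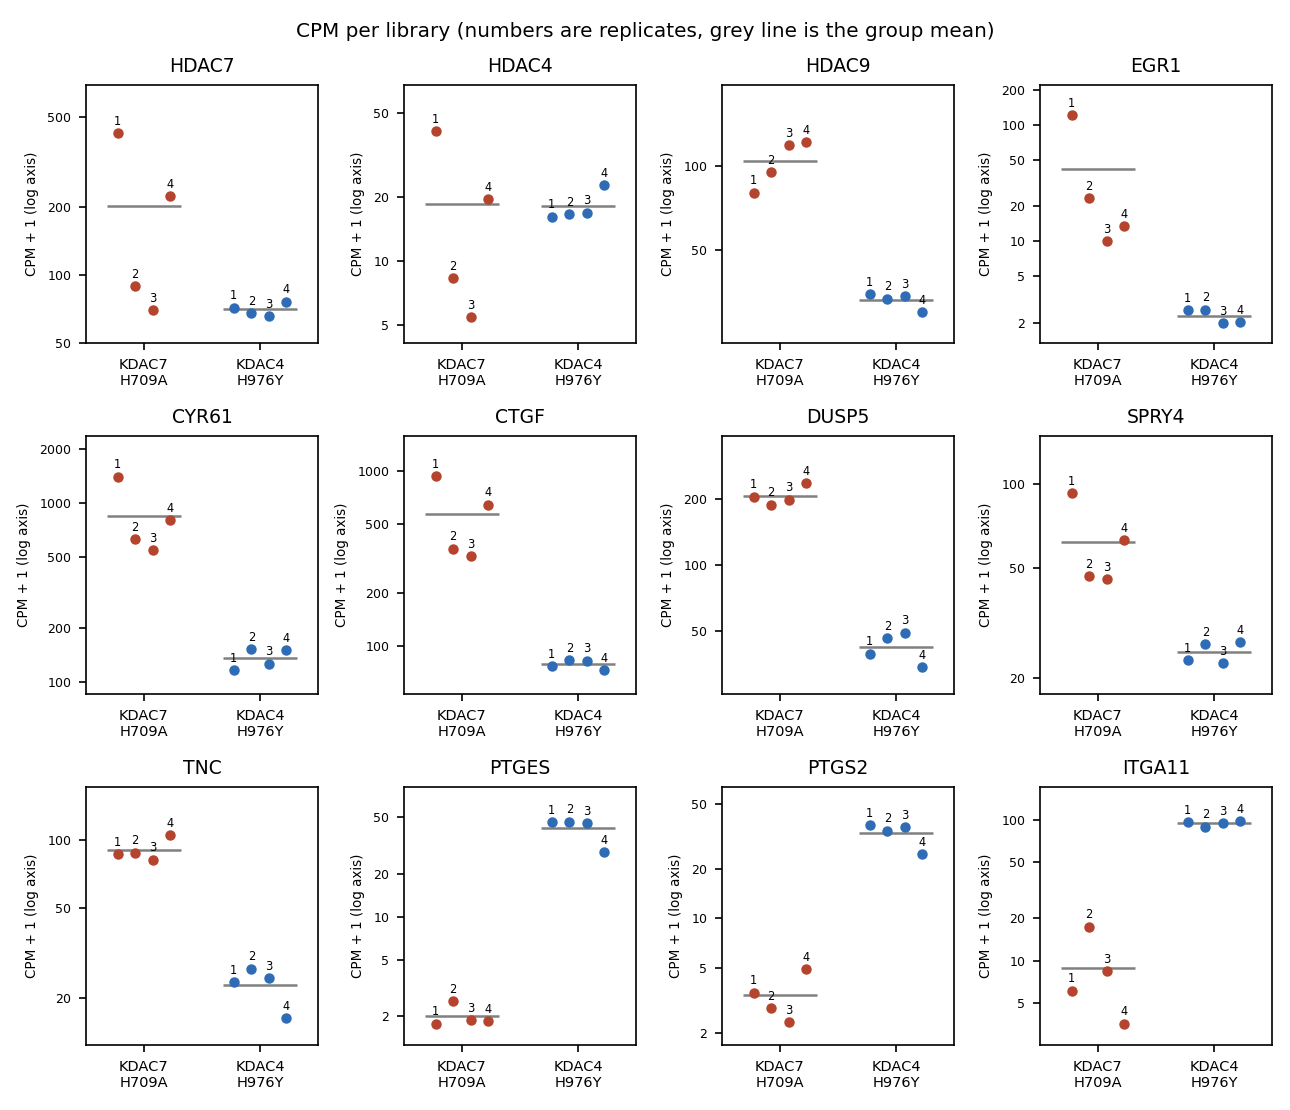
CPM + 1 on a log axis for 12 genes in each library, KDAC7 H709A at the left and KDAC4 H976Y at the right of each panel; points are numbered by replicate and the grey line is the group mean. HDAC7 and HDAC4 spread among the KDAC7 H709A libraries, whereas HDAC9, DUSP5 and TNC lie together above, and PTGES, PTGS2 and ITGA11 below, every KDAC4 H976Y library.

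MEF2 factors and MEF2-regulated genes had 4 higher and 0 lower members of 14 tested, against 12.5% of all genes called, and all 4 calls held when any single library was left out. The share of all 2218 calls that held in this way was not counted. As few as 1215 genes were called with 1 library left out. MEF2D, one of the factors themselves, had 112, 140.0, 114 and 109 CPM in KDAC7 H709A, against 71.9, 80.2, 72.4 and 71.3 CPM in KDAC4 H976Y (log2 fold change 0.68 ± 0.15 at an adjusted p = 0.00962). The libraries did not overlap. Its call was lost with GC and length offsets (adjusted p = 0.0631, 2.65e-05 to 0.0664 over the alternatives). The zinc-finger factors KLF2, KLF4 and KLF6 restrain growth and shape differentiation, and all 3 were higher. KLF6 had 363, 207, 264 and 304 CPM in KDAC7 H709A, against 117, 131, 119.8 and 152 CPM in KDAC4 H976Y (log2 fold change 1.13 ± 0.18 at an adjusted p = 0.00147). KLF2, an established MEF2 target, had 98.7, 20.3, 23.3 and 37.9 CPM in KDAC7 H709A, against 9.71, 14.9, 11.2 and 13.6 CPM in KDAC4 H976Y (log2 fold change 1.87 ± 0.43 at an adjusted p = 0.013). KDAC7 H709A replicate 1 was the highest of the 4 for both. KLF2 was not called without replicates 1 and 4 (0.84 at an adjusted p = 0.052, 0.000463 to 0.0775 over the alternatives). KLF4, on chromosome 9, had 6.27, 6.25, 8.14 and 3.69 CPM in KDAC7 H709A and at most 0.422 CPM in KDAC4 H976Y. The GTPase gene RND3, the most abundant member not called, had 45.6, 43.0, 53.1 and 113 CPM in KDAC7 H709A and 108, 109, 120.2 and 89.8 CPM in KDAC4 H976Y (log2 fold change -0.74 ± 0.37 at an adjusted p = 0.213).

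The promoters of 2 called genes of these groups are shown because they hold a MEF2 box, the A- and T-rich element that MEF2 binds. They run from 250 bases before to 50 bases after a RefSeq start on GRCh38.p14, 5′ to 3′ on the strand of the gene, with the box in capitals. The KLF2 promoter (chr19:16324576-16324875, plus strand) holds 1 box that begins 120 bases before the start. The HDAC9 promoter (chr7:18086575-18086874, plus strand) is 1 of 5 annotated starts and holds 1 box that begins 8 bases before the start. Of 35116 promoters 2.99% held the box on either strand. Counted by gene, over all annotated starts, 3 of the 12 MEF2-list genes with an entry held it. So did 2 of the 22 genes with an entry in the class IIa list, which includes HDAC9. A gene with several starts has more chances to hold a box, so these counts are not compared with the share of promoters. The called members KLF4, KLF6 and MEF2D had none within this window.
KLF2: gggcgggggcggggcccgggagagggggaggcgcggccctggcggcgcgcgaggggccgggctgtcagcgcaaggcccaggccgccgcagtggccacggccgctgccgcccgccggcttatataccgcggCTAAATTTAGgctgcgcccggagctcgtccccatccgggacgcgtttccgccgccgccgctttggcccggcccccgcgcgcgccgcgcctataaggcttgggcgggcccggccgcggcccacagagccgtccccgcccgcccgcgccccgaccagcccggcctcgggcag
HDAC9: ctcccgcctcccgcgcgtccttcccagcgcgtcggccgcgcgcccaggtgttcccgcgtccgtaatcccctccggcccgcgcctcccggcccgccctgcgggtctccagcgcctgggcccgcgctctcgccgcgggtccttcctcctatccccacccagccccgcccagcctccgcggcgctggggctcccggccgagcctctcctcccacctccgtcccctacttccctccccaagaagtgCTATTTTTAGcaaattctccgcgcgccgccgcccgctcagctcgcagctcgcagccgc

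Immediate early genes, which are transcribed within minutes of a growth stimulus, had 4 higher and 0 lower members of 18 tested, 22.2% beside 12.5% of all genes, and 2 of the 4 calls held when any single library was left out. The count without KDAC7 H709A replicates 1 and 4 was 2 and 0, beside 5.1% of all genes called higher there. EGR1, a zinc-finger factor induced through serum response factor, had 119.5, 22.4, 9.08 and 12.4 CPM in KDAC7 H709A, against 1.55, 1.60, 0.974 and 1.03 CPM in KDAC4 H976Y (log2 fold change 4.96 ± 0.87 at an adjusted p = 0.00259). Replicate 1 was far above the other KDAC7 H709A libraries, and the lowest of the 4 was still above every KDAC4 H976Y library. SRF, serum response factor itself, had 72.1, 83.0, 65.0 and 70.6 CPM in KDAC7 H709A, against 38.6, 47.4, 44.3 and 31.9 CPM in KDAC4 H976Y (log2 fold change 0.84 ± 0.17 at an adjusted p = 0.0059). These libraries lay close together within each group. The call of SRF was lost with GC and length offsets (adjusted p = 0.0644, 3.94e-06 to 0.0644 over the alternatives). FOSL1, an AP-1 subunit, was higher as well (log2 fold change 0.81 ± 0.21 at an adjusted p = 0.0254), with 264, 282, 224 and 373 CPM in KDAC7 H709A and 162, 185, 157 and 149 CPM in KDAC4 H976Y. FOSL1 did not pass once any 1 of KDAC4 H976Y replicates 1, 2, 3 and 4 and KDAC7 H709A replicates 2 and 4 was left out (adjusted p up to 0.0854 with 1 library left out, and 0.000478 to 0.271 over the alternatives). Its paralog FOSL2 was not called (log2 fold change 0.14 ± 0.17 at an adjusted p = 0.644), with 399.7, 275, 233 and 291 CPM in KDAC7 H709A and 265, 271, 267 and 281 CPM in KDAC4 H976Y. The fourth called member was the small Maf factor MAFF (log2 fold change 1.34 ± 0.36 at an adjusted p = 0.0274). The call of MAFF ended with any 1 of these left out, KDAC4 H976Y replicates 1, 2 and 4 and KDAC7 H709A replicate 1 (adjusted p up to 0.0713 with 1 library left out, and 0.000152 to 0.0713 over the alternatives).

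EGR1 and SRF promoters are shown because each holds 2 CArG boxes, the element that serum response factor binds, given in capitals on the same window as above. Those of EGR1 (chr5:138465229-138465528, plus strand) begin 105 and 83 bases before the start. The boxes of SRF (chr6:43171019-43171318, plus strand, 1 of 2 starts) begin 30 and 10 bases before it. A CArG box stood in 1.29% of all promoters. Counted by gene, over all annotated starts, it stood in 3 of the 16 immediate early genes with an entry. These differ in unit and are not compared.
EGR1: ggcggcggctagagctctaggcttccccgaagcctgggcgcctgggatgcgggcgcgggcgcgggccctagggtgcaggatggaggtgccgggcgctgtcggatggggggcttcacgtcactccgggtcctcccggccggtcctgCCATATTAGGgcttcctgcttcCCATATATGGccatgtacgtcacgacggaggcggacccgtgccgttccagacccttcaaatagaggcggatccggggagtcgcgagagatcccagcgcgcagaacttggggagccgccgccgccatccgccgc
SRF: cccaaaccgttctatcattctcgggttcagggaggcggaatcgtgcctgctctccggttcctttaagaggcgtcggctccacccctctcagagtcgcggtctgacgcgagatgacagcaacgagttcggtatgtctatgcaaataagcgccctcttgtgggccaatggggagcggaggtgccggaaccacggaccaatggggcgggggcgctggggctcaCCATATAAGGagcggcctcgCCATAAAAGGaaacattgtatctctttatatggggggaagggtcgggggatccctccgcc

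ERK feedback genes had 6 higher and 0 lower members of 19 tested, 31.6% beside the 12.5% of all genes, and a list median of 0.61. Without KDAC7 H709A replicates 1 and 4, the numbers were 5 and 0 of 19, beside 5.1% and 3.98% of all genes. DUSP5, a nuclear phosphatase that removes the activating phosphates of ERK, had 204, 188, 198 and 235 CPM in KDAC7 H709A, against 38.4, 45.5, 48.3 and 33.2 CPM in KDAC4 H976Y (log2 fold change 2.32 ± 0.19 at an adjusted p = 1.47e-05). All 4 KDAC7 H709A libraries were near 200 CPM, and DUSP5 was called in all 29 alternatives. The cytoplasmic ERK phosphatase DUSP7 was higher too (log2 fold change 1.09 ± 0.18 at an adjusted p = 0.00193), as was DUSP4 (log2 fold change 0.82 ± 0.24 at an adjusted p = 0.0384). DUSP4 was not called when any 1 of KDAC4 H976Y replicates 1, 2, 3 and 4, KDAC7 H709A replicates 1 and 4 and WT TMP195 replicates 1, 2 and 3 was left out (adjusted p up to 0.109 with 1 library left out, and 0.00344 to 0.493 over the alternatives). SPRY4, an inhibitor of receptor tyrosine kinase signalling, had 91.7, 45.7, 44.6 and 61.8 CPM in KDAC7 H709A, against 22.2, 25.5, 21.6 and 25.9 CPM in KDAC4 H976Y (log2 fold change 1.35 ± 0.22 at an adjusted p = 0.00149). Its paralog SPRY2, which lies on chromosome 13, had 54.5, 57.4, 61.8 and 76.2 CPM in KDAC7 H709A, against 19.1, 23.3, 24.1 and 14.6 CPM in KDAC4 H976Y (log2 fold change 1.62 ± 0.24 at an adjusted p = 0.000961). Neither overlapped between the groups. The ETS factor ETV4 was called (log2 fold change 0.82 ± 0.22 at an adjusted p = 0.028). ETV4 did not pass once any 1 of KDAC4 H976Y replicates 1, 2, 3 and 4 and KDAC7 H709A replicates 2 and 3 was left out (adjusted p up to 0.0816 with 1 library left out, and 8.6e-05 to 0.185 over the alternatives). PHLDA1, the most abundant member not called, had 612, 629, 757 and 659.7 CPM in KDAC7 H709A and 795, 784, 808 and 579.6 CPM in KDAC4 H976Y (log2 fold change -0.16 ± 0.22 at an adjusted p = 0.699).

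Among receptor tyrosine kinases 4 were higher and 2 lower of 22 tested, and among their ligands 3 were higher and 1 lower of 18, which is 27.3% and 22.2% beside 12.5% of all genes. With any single library left out, 3 of the 6 and 2 of the 4 calls held. The fibroblast growth factor receptor FGFR1 had 105, 90.2, 85.0 and 73.2 CPM in KDAC7 H709A, against 43.9, 49.8, 50.7 and 47.0 CPM in KDAC4 H976Y (log2 fold change 0.88 ± 0.18 at an adjusted p = 0.00534). GAS6, the vitamin K-dependent ligand of the TAM receptors AXL and MERTK, had 439.8, 333, 284 and 181 CPM in KDAC7 H709A, against 90.5, 90.1, 87.0 and 83.6 CPM in KDAC4 H976Y (log2 fold change 1.82 ± 0.29 at an adjusted p = 0.00156). GAS6 lies on chromosome 13. The libraries of the groups were apart for both FGFR1 and GAS6. The receptor MERTK was higher (log2 fold change 2.52 ± 0.47 at an adjusted p = 0.00393), with 6.08, 3.12, 2.63 and 6.00 CPM in KDAC7 H709A and 0.704, 0.638, 1.41 and 0.206 CPM in KDAC4 H976Y. Every KDAC7 H709A library was above the KDAC4 H976Y range for MERTK. AXL, the most abundant receptor, was not called (log2 fold change 0.38 ± 0.18 at an adjusted p = 0.181), with 769.9, 928, 1030.0 and 1064 CPM in KDAC7 H709A and 727, 813, 808 and 563 CPM in KDAC4 H976Y. EPHB2, a receptor for membrane-bound ephrins, was lower, with 42.2, 129, 121 and 69.8 CPM in KDAC7 H709A and 249.6, 256, 259 and 176 CPM in KDAC4 H976Y (log2 fold change -1.38 ± 0.29 at an adjusted p = 0.00849). Its KDAC7 H709A libraries all lay below the KDAC4 H976Y range, replicate 1 farthest. The call of EPHB2 was lost with GC and length offsets and without replicates 1 and 4 together (adjusted p = 0.0855, 2.19e-05 to 0.0855 over the alternatives). Among ligands FGF1 was higher (log2 fold change 2.13 ± 0.44 at an adjusted p = 0.00652), with 5.89, 3.82, 6.01 and 12.2 CPM in KDAC7 H709A and 1.27, 1.28, 2.17 and 1.65 CPM in KDAC4 H976Y. FGF5 had 17.1, 20.9, 35.9 and 53.7 CPM in KDAC7 H709A and 9.85, 8.94, 9.42 and 5.97 CPM in KDAC4 H976Y (log2 fold change 1.90 ± 0.47 at an adjusted p = 0.0193). The call of FGF5 ended with any 1 of these left out, KDAC4 H976Y replicates 1, 2, 3 and 4 and KDAC7 H709A replicate 4 (adjusted p up to 0.0616 with 1 library left out, and 1.93e-05 to 0.0623 over the alternatives). For both ligands KDAC7 H709A replicate 4 was the highest library. VEGFA, the vascular growth factor, had 608, 268, 196 and 259 CPM in KDAC7 H709A and 454, 413, 406 and 574 CPM in KDAC4 H976Y and was not called (log2 fold change -0.47 ± 0.29 at an adjusted p = 0.323).

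YAP and TEAD targets had 6 higher and 0 lower members of 16 tested, 37.5% beside 12.5% of all genes, and a list median log2 fold change of 0.60. YAP is the coactivator that the Hippo kinases restrain, and TEAD factors carry it to DNA. CYR61 (ENSG00000142871, chromosome 1, 85580761 to 85583962), a secreted matricellular protein, had 1393, 626, 543 and 797 CPM in KDAC7 H709A, against 116, 152, 126 and 151 CPM in KDAC4 H976Y (log2 fold change 2.62 ± 0.27 at an adjusted p = 8.8e-05). CTGF (ENSG00000118523, chromosome 6, 131948176 to 131951373), its relative, had 930.5, 359, 324 and 639 CPM in KDAC7 H709A, against 76.0, 82.3, 81.6 and 71.9 CPM in KDAC4 H976Y (log2 fold change 2.85 ± 0.35 at an adjusted p = 0.00027). For both, replicate 1 was highest, replicate 4 next and replicates 2 and 3 lowest, and even these exceeded every KDAC4 H976Y library. ANKRD1, a nuclear cofactor of muscle, had 77.5, 101, 102 and 181 CPM in KDAC7 H709A, against 30.6, 32.1, 36.2 and 26.2 CPM in KDAC4 H976Y (log2 fold change 1.88 ± 0.26 at an adjusted p = 0.000572), with replicate 4 the highest. LATS2, the Hippo kinase that inhibits YAP and is itself a YAP target, was higher (log2 fold change 1.78 ± 0.20 at an adjusted p = 0.00014), with 93.0, 52.3, 55.9 and 65.2 CPM in KDAC7 H709A and 21.4, 21.4, 18.3 and 16.3 CPM in KDAC4 H976Y. It lies on chromosome 13. The angiomotin family member AMOTL2 was higher in all 29 alternatives (log2 fold change 1.05 ± 0.18 at an adjusted p = 0.00221), and the kinase NUAK2 was called with all libraries (log2 fold change 1.56 ± 0.41 at an adjusted p = 0.025). NUAK2 was not called when any 1 of KDAC4 H976Y replicates 1, 2 and 3 and KDAC7 H709A replicate 1 was left out (adjusted p up to 0.0785 with 1 library left out, and 0.00233 to 0.164 over the alternatives). Without replicates 1 and 4 the list had 5 higher members and 1 lower, the coagulation factor receptor F3 (log2 fold change -0.85 at an adjusted p = 0.0215), which was not called with all 4 libraries (log2 fold change -0.18 ± 0.27 at an adjusted p = 0.729, 0.000577 to 0.99 over the alternatives). In the fit without replicates 1 and 4, 16 members were tested, and 5.1% of all genes were higher and 3.98% lower.

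Promoters of CTGF and ANKRD1 are shown because they hold the most TEAD motifs among the called members with an entry, together with NUAK2. The motif searched was GGAATG or its reverse complement CATTCC. In the CTGF promoter (chr6:131951323-131951622, minus strand) 3 motifs begin 169, 104 and 95 bases before the start, and in the ANKRD1 promoter (chr10:90921038-90921337, minus strand) 2 motifs begin 220 and 128 bases before it. Counted by gene, over all annotated starts, all 5 called members with an entry held the motif, as did 8 of the 11 list genes with one. Counted by promoter, 14% of all promoters held it, which differs in unit and is not compared.
CTGF: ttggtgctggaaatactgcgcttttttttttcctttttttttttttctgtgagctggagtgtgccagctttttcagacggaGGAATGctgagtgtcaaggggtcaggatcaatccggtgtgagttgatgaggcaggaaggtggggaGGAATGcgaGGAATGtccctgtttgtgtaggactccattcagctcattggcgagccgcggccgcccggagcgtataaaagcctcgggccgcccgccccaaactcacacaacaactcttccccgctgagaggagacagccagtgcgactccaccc
ANKRD1: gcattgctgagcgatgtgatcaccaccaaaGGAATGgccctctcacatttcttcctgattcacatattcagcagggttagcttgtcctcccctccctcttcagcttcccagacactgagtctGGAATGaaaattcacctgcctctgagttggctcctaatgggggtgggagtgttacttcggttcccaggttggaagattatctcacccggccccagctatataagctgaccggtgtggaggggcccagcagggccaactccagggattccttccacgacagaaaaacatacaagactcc

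HOX genes, which set positional identity, had 10 higher and 1 lower of 30 tested, 36.7% beside 12.5% of all genes, and 7 of those higher belong to the HOXB cluster on chromosome 17. HOXC8 had 10.6, 6.51, 7.64 and 14.2 CPM in KDAC7 H709A, against 1.41, 2.13, 1.52 and 1.65 CPM in KDAC4 H976Y (log2 fold change 2.53 ± 0.30 at an adjusted p = 0.000242). HOXB2 had 63.5, 25.1, 24.6 and 42.5 CPM in KDAC7 H709A, against 12.0, 10.8, 12.7 and 8.03 CPM in KDAC4 H976Y (log2 fold change 1.83 ± 0.29 at an adjusted p = 0.00147). Both were above the KDAC4 H976Y range in every KDAC7 H709A library. HOXB13, the most posterior member of its cluster, had 392, 33.8, 30.2 and 4.03 CPM in KDAC7 H709A and at most 0.319 CPM in KDAC4 H976Y (log2 fold change 9.39 ± 1.82 at an adjusted p = 0.00477). Its level in KDAC7 H709A thus ran over a wide range, with replicate 1 the highest and replicate 4 the lowest. HOXB5 (log2 fold change 3.00 ± 0.68 at an adjusted p = 0.0113) and HOXB8 (log2 fold change 1.72 ± 0.34 at an adjusted p = 0.00484) were higher too, and HOXA9 was lower (log2 fold change -0.47 ± 0.14 at an adjusted p = 0.0412). HOXB5 was not called with the replicate number as a block (adjusted p = 0.0594, 7.01e-05 to 0.0594 over the alternatives). HOXA9 did not pass once any 1 of KDAC4 H803A replicates 2 and 3, KDAC4 H976Y replicates 1, 2 and 3, KDAC7 H709A replicates 1, 2, 3 and 4 and WT TMP195 replicates 1, 2 and 3 was left out (adjusted p up to 0.138 with 1 library left out, and 0.0004 to 0.355 over the alternatives). HOXB6 was not called (log2 fold change 1.59 ± 0.51 at an adjusted p = 0.0588), with 74.4, 20.9, 16.6 and 18.8 CPM in KDAC7 H709A and 10.7, 8.83, 9.42 and 14.6 CPM in KDAC4 H976Y. Of the 11 calls 5 held when any single library was left out. Without replicates 1 and 4, 5 were higher and 1 lower of 30 tested, beside 5.1% and 3.98% of all genes.

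Mesenchymal and chondro-osteogenic transcription factors had 4 higher and 0 lower of 18 tested, 22.2% beside 12.5% of all genes, and also 4 and 0 of 19 without KDAC7 H709A replicates 1 and 4. In that second fit 5.1% of all genes were higher and 3.98% lower. SOX9, the regulator of cartilage formation, had 218, 289, 273 and 354 CPM in KDAC7 H709A, against 109.5, 106, 109 and 105 CPM in KDAC4 H976Y (log2 fold change 1.40 ± 0.20 at an adjusted p = 0.000866). RUNX1, a factor of blood and skeletal development, had 209, 206, 219 and 177 CPM in KDAC7 H709A, against 99.8, 103, 103 and 112 CPM in KDAC4 H976Y (log2 fold change 0.96 ± 0.18 at an adjusted p = 0.00426). The groups were well apart for both. TWIST2 had 24.8, 64.7, 62.2 and 12.7 CPM in KDAC7 H709A, against 7.04, 9.25, 7.47 and 6.38 CPM in KDAC4 H976Y (log2 fold change 2.44 ± 0.45 at an adjusted p = 0.00337), and here replicates 2 and 3 were the high libraries. SOX4 was called (log2 fold change 7.23 ± 1.83 at an adjusted p = 0.0206) with 21.0, 0.260, 0.0626 and 24.4 CPM in KDAC7 H709A and 0.281, 0, 0 and 0 CPM in KDAC4 H976Y, so that in KDAC7 H709A replicates 1 and 4 were above 1 CPM and replicates 2 and 3 were not. The call of SOX4 ended with any 1 of these left out, KDAC4 H976Y replicates 1, 2 and 3 (adjusted p up to 0.0736 with 1 library left out, and 4.34e-05 to 0.778 over the alternatives). ZEB1 had 69.4, 70.7, 89.3 and 114 CPM in KDAC7 H709A and 59.1, 63.8, 65.9 and 57.3 CPM in KDAC4 H976Y and was not called (log2 fold change 0.48 ± 0.25 at an adjusted p = 0.246).

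Wnt, Notch and Hedgehog genes had 8 higher and 4 lower of 33 tested, 36.4% beside 12.5% of all genes, and 8 of these 12 calls held when any single library was left out. The Notch ligands moved in opposite directions. JAG1 had 73.4, 93.4, 97.1 and 102 CPM in KDAC7 H709A, against 256, 277, 276 and 200.2 CPM in KDAC4 H976Y (log2 fold change -1.46 ± 0.16 at an adjusted p = 0.000136). DLL1 had 10.3, 3.82, 3.32 and 5.16 CPM in KDAC7 H709A, against 0.563, 0.106, 0.325 and 0.206 CPM in KDAC4 H976Y (log2 fold change 4.20 ± 0.51 at an adjusted p = 0.000242). The receptor NOTCH2 was not called (log2 fold change -0.71 ± 0.33 at an adjusted p = 0.182), with 386, 1018, 984 and 760.3 CPM in KDAC7 H709A and 1343, 1381, 1476 and 965 CPM in KDAC4 H976Y. No libraries overlapped for either ligand. The Wnt ligands WNT7B and WNT5B were both lower. WNT7B had 13.2, 14.4, 9.64 and 7.00 CPM in KDAC7 H709A, against 36.3, 36.2, 32.5 and 34.4 CPM in KDAC4 H976Y (log2 fold change -1.66 ± 0.28 at an adjusted p = 0.00193), and WNT5B had 1 count in KDAC7 H709A in all, against 1.83, 1.49, 1.299 and 1.24 CPM in KDAC4 H976Y (ratio 90.8-fold lower, counting interval 15.5 to 3660.0). The Wnt receptors FZD2 (log2 fold change 1.42 ± 0.25 at an adjusted p = 0.00306) and FZD4 (log2 fold change 0.95 ± 0.21 at an adjusted p = 0.0107) and the nuclear effector TCF7L2 (log2 fold change 0.86 ± 0.15 at an adjusted p = 0.00242) were higher. So was the Hedgehog receptor PTCH1 on chromosome 9 (log2 fold change 1.93 ± 0.38 at an adjusted p = 0.00526). FZD2 was not called with GC and length offsets (adjusted p = 0.101, 1.52e-06 to 0.108 over the alternatives), nor FZD4 without replicates 2 and 3 (0.86 at an adjusted p = 0.0642, 0.000126 to 0.0642 over the alternatives).

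**Figure D3:**
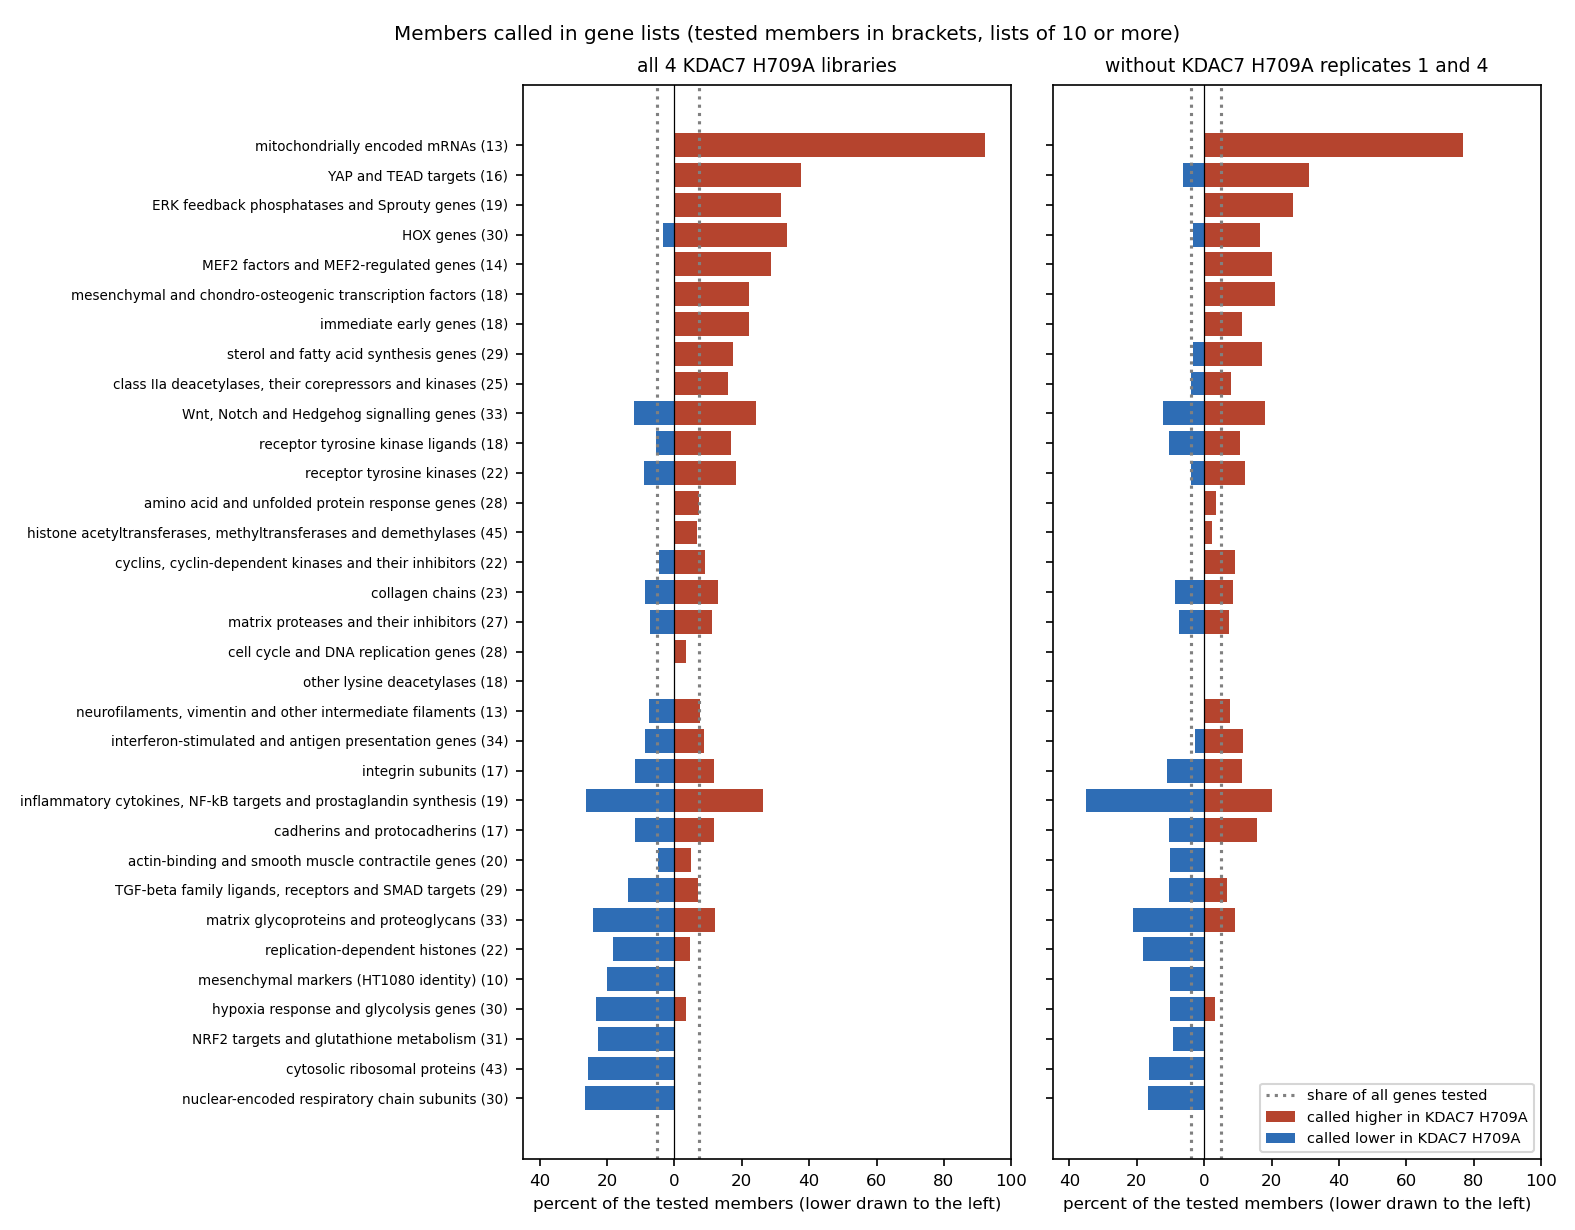
Percent of the tested members of each gene list shown (lists of 10 or more tested members) called higher (red, to the right) or lower (blue, to the left) in KDAC7 H709A relative to KDAC4 H976Y, with all 4 KDAC7 H709A libraries and without replicates 1 and 4. Dotted lines are the shares of all genes tested, 7.28% higher and 5.19% lower at the left. Mitochondrially encoded mRNAs had 12 of 13 members called higher, and nuclear-encoded respiratory chain and ribosomal protein genes had only lower calls in both panels.

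Matrix glycoproteins and proteoglycans had 4 higher and 8 lower of 33 tested, 36.4% beside 12.5% of all genes, and 10 of the 12 calls held when any single library was left out. Tenascin C (TNC), a matrix protein of healing wounds, had 85.3, 87.0, 80.7 and 104 CPM in KDAC7 H709A, against 22.4, 25.9, 23.4 and 15.2 CPM in KDAC4 H976Y (log2 fold change 2.03 ± 0.19 at an adjusted p = 3.19e-05). TNC lies on chromosome 9. TGFBI, a TGF-beta-induced adhesion protein, had 4.44, 10.6, 9.33 and 4.57 CPM in KDAC7 H709A, against 65.5, 52.97, 61.9 and 43.2 CPM in KDAC4 H976Y (log2 fold change -2.95 ± 0.40 at an adjusted p = 0.000601). The proteoglycan versican (VCAN) had 2.61, 39.0, 36.6 and 4.99 CPM in KDAC7 H709A, against 322, 294, 306 and 209.5 CPM in KDAC4 H976Y (log2 fold change -3.77 ± 0.70 at an adjusted p = 0.0036). Versican was lower in every KDAC7 H709A library, and within that group replicates 2 and 3 were well above replicates 1 and 4. The laminin chain LAMA3 was lower with little spread (log2 fold change -1.64 ± 0.18 at an adjusted p = 0.000142), at 6.76, 5.55, 5.32 and 6.04 CPM in KDAC7 H709A and 16.6, 16.6, 18.4 and 22.0 CPM in KDAC4 H976Y. Fibronectin (FN1) had 346, 779, 617 and 921 CPM in KDAC7 H709A and 2479, 2324, 2464 and 1487 CPM in KDAC4 H976Y (log2 fold change -1.72 ± 0.43 at an adjusted p = 0.0198). FN1 was not called when any 1 of KDAC4 H976Y replicates 1, 2 and 3 was left out (adjusted p up to 0.0616 with 1 library left out, and 6.66e-06 to 0.094 over the alternatives). The laminin chain LAMB3, the most abundant member not called, had 1193, 526, 512 and 566 CPM in KDAC7 H709A and 610.5, 678, 650.3 and 502 CPM in KDAC4 H976Y (log2 fold change 0.20 ± 0.30 at an adjusted p = 0.736).

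Collagen chains had 3 higher and 2 lower of 23 tested, 21.7% beside 12.5% of all genes, and 2 of the 5 calls held when any single library was left out. COL1A2, a chain of type I collagen, had 0 counts in every KDAC7 H709A library, against 2.53, 3.08, 2.92 and 2.68 CPM in KDAC4 H976Y, at least 58.5-fold lower with the floor of 3 counts over the group. The floor and all counting intervals, which are at 95%, cover counting error only. COL17A1, the hemidesmosomal collagen, was higher (log2 fold change 1.32 ± 0.29 at an adjusted p = 0.0102), with 21.8, 15.3, 17.2 and 9.47 CPM in KDAC7 H709A and 6.76, 5.53, 7.36 and 5.77 CPM in KDAC4 H976Y. COL8A1 was higher (log2 fold change 1.12 ± 0.26 at an adjusted p = 0.0147), with 10.52, 14.2, 16.1 and 17.4 CPM in KDAC7 H709A and 8.45, 6.49, 4.76 and 7.21 CPM in KDAC4 H976Y. COL8A1 did not pass once any 1 of KDAC4 H976Y replicates 2 and 3 was left out (adjusted p up to 0.0615 with 1 library left out, and 0.000125 to 0.0711 over the alternatives). The basement membrane chain COL4A2 was not called (log2 fold change -0.12 ± 0.20 at an adjusted p = 0.763), with 426, 380.2, 258 and 303 CPM in KDAC7 H709A and 394, 401, 367 and 324 CPM in KDAC4 H976Y.

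Integrin subunits had 2 higher and 2 lower of 17 tested, 23.5% beside 12.5% of all genes, and all 4 calls held when any single library was left out. ITGA11, which pairs with ITGB1 to bind collagen, had 5.12, 16.5, 7.45 and 2.56 CPM in KDAC7 H709A, against 95.7, 88.9, 94.1 and 97.0 CPM in KDAC4 H976Y (log2 fold change -3.58 ± 0.43 at an adjusted p = 0.000236). ITGB3, of the vitronectin receptor, had 1.54, 5.55, 5.26 and 1.89 CPM in KDAC7 H709A, against 23.1, 21.3, 26.0 and 16.3 CPM in KDAC4 H976Y (log2 fold change -2.61 ± 0.39 at an adjusted p = 0.00109). Both were lowest in replicates 1 and 4. ITGB2, the beta chain of leukocyte integrins, had 36.5, 4.86, 5.38 and 21.8 CPM in KDAC7 H709A, against 0.704, 0.638, 0.216 and 0.206 CPM in KDAC4 H976Y (log2 fold change 5.21 ± 0.75 at an adjusted p = 0.000844), and was highest in replicates 1 and 4. ITGB1, the most abundant subunit, was not called (log2 fold change -0.55 ± 0.53 at an adjusted p = 0.559), with 396, 1239, 1461 and 1799 CPM in KDAC7 H709A and 1890.0, 1936, 2112 and 1239 CPM in KDAC4 H976Y. Among cadherins 2 were higher and 2 lower of 17, also 23.5%, and 2 of these 4 calls held. CDH11, a mesenchymal cadherin, had 37.1, 25.9, 27.1 and 108 CPM in KDAC7 H709A and 2 counts in all of KDAC4 H976Y, a ratio of 913-fold with a counting interval of 253 to 7540. PCDH1 was higher (log2 fold change 1.51 ± 0.25 at an adjusted p = 0.00181), with 8.49, 12.2, 13.8 and 11.7 CPM in KDAC7 H709A and 3.38, 5.42, 4.55 and 2.68 CPM in KDAC4 H976Y. FAT3 was lower (log2 fold change -1.45 ± 0.35 at an adjusted p = 0.0173), with 7.62, 3.90, 3.51 and 10.6 CPM in KDAC7 H709A and 17.2, 18.6, 15.6 and 18.7 CPM in KDAC4 H976Y. FAT3 was not called without KDAC4 H976Y replicate 2 (adjusted p up to 0.0529 with 1 library left out, and 7.48e-06 to 0.105 over the alternatives). The abundant FAT1 was not called (log2 fold change -0.27 ± 0.31 at an adjusted p = 0.625).

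Among proteases of the matrix and their inhibitors 3 of 27 were higher and 2 lower, 18.5% beside 12.5% of all genes, and 3 of the 5 calls held when any single library was left out. MMP14, a membrane-bound collagenase, had 672, 935, 715 and 661 CPM in KDAC7 H709A, against 1602, 1626, 1595 and 1227 CPM in KDAC4 H976Y (log2 fold change -1.02 ± 0.17 at an adjusted p = 0.0022). Its call was lost with GC and length offsets and without replicates 1 and 4 together (adjusted p = 0.198, 1.51e-10 to 0.198 over the alternatives). SERPINB2, an inhibitor of plasminogen activators, had 1.25, 1.302, 1.00 and 3.69 CPM in KDAC7 H709A, against 34.6, 45.8, 42.8 and 24.5 CPM in KDAC4 H976Y (log2 fold change -4.30 ± 0.77 at an adjusted p = 0.00298). The groups were far apart for SERPINB2. The metalloprotease ADAM12 was higher (log2 fold change 1.80 ± 0.43 at an adjusted p = 0.0162), with 7.62, 2.26, 2.75 and 6.42 CPM in KDAC7 H709A and 1.41, 1.60, 1.52 and 0.824 CPM in KDAC4 H976Y. Without replicates 1 and 4 ADAM12 was not called (0.89 at an adjusted p = 0.188, 0.00178 to 0.248 over the alternatives). Urokinase (PLAU) had 479, 849, 885 and 686 CPM in KDAC7 H709A and 726, 778, 789.9 and 489 CPM in KDAC4 H976Y (log2 fold change 0.06 ± 0.31 at an adjusted p = 0.936).

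In the TGF-beta family, with its receptors and SMAD targets, 2 of 29 tested genes were higher and 4 lower, 20.7% beside 12.5% of all genes, and 4 of the 6 calls held when any single library was left out. BMP2, a bone morphogenetic protein, had 1.35, 2.43, 3.32 and 2.89 CPM in KDAC7 H709A, against 12.2, 13.2, 10.1 and 9.06 CPM in KDAC4 H976Y (log2 fold change -2.14 ± 0.32 at an adjusted p = 0.000966). INHBA, the activin A subunit, had 7.72, 23.7, 20.8 and 17.1 CPM in KDAC7 H709A, against 94.0, 100.1, 102 and 83.8 CPM in KDAC4 H976Y (log2 fold change -2.45 ± 0.37 at an adjusted p = 0.00118). Each of the 4 KDAC7 H709A libraries was low for both ligands. ID3, a helix-loop-helix inhibitor that BMP signals induce, had 16.3, 6.68, 6.51 and 8.18 CPM in KDAC7 H709A, against 38.4, 42.0, 34.8 and 29.04 CPM in KDAC4 H976Y (log2 fold change -1.94 ± 0.31 at an adjusted p = 0.00154). The receptor TGFBR2 was not called (log2 fold change -0.01 ± 0.36 at an adjusted p = 0.989), with 192, 335, 415 and 453 CPM in KDAC7 H709A and 374, 372, 392 and 269 CPM in KDAC4 H976Y. The ligand BMP4 was higher (log2 fold change 4.08 ± 0.95 at an adjusted p = 0.0132). BMP4 was not called when any 1 of KDAC4 H976Y replicates 2 and 3 was left out (adjusted p up to 0.0524 with 1 library left out, and 0.000405 to 0.0524 over the alternatives).

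Inflammatory and prostaglandin genes had 5 higher and 5 lower of 19 tested, 52.6% beside 12.5% of all genes, and 9 of the 10 calls held when any single library was left out. PTGS2 and PTGES, which act in prostaglandin E2 synthesis, were both lower. PTGS2, the inducible cyclooxygenase, had 2.51, 1.82, 1.31 and 3.90 CPM in KDAC7 H709A, against 36.2, 33.4, 35.0 and 23.7 CPM in KDAC4 H976Y (log2 fold change -3.73 ± 0.50 at an adjusted p = 0.000488). PTGES, prostaglandin E synthase, which lies on chromosome 9, had 0.772, 1.56, 0.876 and 0.839 CPM in KDAC7 H709A, against 45.3, 45.5, 44.6 and 27.4 CPM in KDAC4 H976Y (log2 fold change -5.33 ± 0.37 at an adjusted p = 6.49e-06). No KDAC7 H709A library approached the KDAC4 H976Y range. The cytokine IL1B had 40.8, 94.2, 113 and 71.5 CPM in KDAC7 H709A, against 309.6, 334, 369 and 224 CPM in KDAC4 H976Y (log2 fold change -1.95 ± 0.31 at an adjusted p = 0.00136). IL1A (log2 fold change -2.87 ± 0.47 at an adjusted p = 0.00171) and IL11 (log2 fold change -1.36 ± 0.26 at an adjusted p = 0.00453) were lower with it. Those that were higher belong to the NF-kB pathway itself. TNFAIP3, the deubiquitinase that ends NF-kB signalling, had 39.6, 18.7, 15.2 and 21.8 CPM in KDAC7 H709A, against 3.94, 7.13, 5.63 and 8.86 CPM in KDAC4 H976Y (log2 fold change 1.90 ± 0.31 at an adjusted p = 0.00173). The subunits NFKB2 (log2 fold change 1.49 ± 0.23 at an adjusted p = 0.00143) and RELB (log2 fold change 1.34 ± 0.30 at an adjusted p = 0.0112) and the inhibitor NFKBIA (log2 fold change 0.73 ± 0.17 at an adjusted p = 0.0139) were higher with it. NFKBIA was not called without replicates 1 and 4 (0.55 at an adjusted p = 0.0952) or with no filter on low counts (adjusted p 0.000486 to 0.0952 over the alternatives), nor RELB without replicates 2 and 3 (1.21 at an adjusted p = 0.0619, 1.45e-05 to 0.0619 over the alternatives). The apoptosis inhibitor BIRC3 was called (log2 fold change 2.25 ± 0.61 at an adjusted p = 0.0285). BIRC3 did not pass once any 1 of KDAC4 H976Y replicates 2, 3 and 4 and KDAC7 H709A replicates 2, 3 and 4 was left out (adjusted p up to 0.101 with 1 library left out, and 1.1e-05 to 0.167 over the alternatives). CSF1 was not called (log2 fold change 0.02 ± 0.20 at an adjusted p = 0.974), with 67.0, 129, 87.6 and 80.5 CPM in KDAC7 H709A and 95.3, 93.4, 88.5 and 83.4 CPM in KDAC4 H976Y.

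Interferon-stimulated and antigen presentation genes had 3 higher and 3 lower of 34, 17.6% beside 12.5% of all genes, and 3 of the 6 calls held when any single library was left out. There were 4 higher and 1 lower of 35 tested without replicates 1 and 4, beside 5.1% and 3.98% of all genes. OAS3, a sensor of double-stranded RNA, had 20.9, 47.5, 47.3 and 22.8 CPM in KDAC7 H709A, against 6.47, 6.06, 8.23 and 5.97 CPM in KDAC4 H976Y (log2 fold change 2.37 ± 0.28 at an adjusted p = 0.000236). ISG20 was higher (log2 fold change 0.96 ± 0.17 at an adjusted p = 0.00312) and IFI27 lower (log2 fold change -3.37 ± 0.62 at an adjusted p = 0.00354). IFI27 was at most 0.694 CPM in KDAC7 H709A and at least 2.06 CPM in KDAC4 H976Y. B2M, the light chain of class I molecules, was not called (log2 fold change 0.31 ± 0.42 at an adjusted p = 0.698), with 145, 355, 403 and 498 CPM in KDAC7 H709A and 310.5, 314, 311 and 197 CPM in KDAC4 H976Y.

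Cyclins, their kinases and inhibitors had 2 higher and 1 lower of 22, 13.6% beside 12.5% of all genes, while cell cycle and DNA replication genes had 1 of 28 called, or 3.57%. With any single library left out, 1 of the 3 calls and not the 1 call of the second list held. Cyclin D2 (CCND2) had 55.7, 151, 186 and 119.7 CPM in KDAC7 H709A and at most 2.38 CPM in KDAC4 H976Y. Replicates 2 and 3 were its highest libraries, in the way that they were for cyclin D1. CCND1 had 612, 1121, 1306 and 734 CPM in KDAC7 H709A, against 561, 609, 588 and 496 CPM in KDAC4 H976Y (log2 fold change 0.74 ± 0.22 at an adjusted p = 0.041). The call of CCND1 ended with any 1 of these left out, KDAC4 H803A replicates 2 and 3, KDAC4 H976Y replicates 1, 2, 3 and 4, KDAC7 H709A replicates 2 and 3 and WT TMP195 replicates 1, 2 and 3 (adjusted p up to 0.113 with 1 library left out, and 1.71e-05 to 0.42 over the alternatives). The kinase inhibitor CDKN1B was lower (log2 fold change -0.69 ± 0.19 at an adjusted p = 0.0283), with 16.0, 19.4, 19.7 and 20.9 CPM in KDAC7 H709A and 37.5, 31.4, 26.4 and 27.6 CPM in KDAC4 H976Y. CDKN1B was not called when any 1 of KDAC4 H976Y replicates 1, 2 and 3, KDAC7 H709A replicates 2 and 3 and WT TMP195 replicate 1 was left out (adjusted p up to 0.12 with 1 library left out, and 0.000945 to 0.175 over the alternatives). CDK6 was not called (log2 fold change 0.79 ± 0.36 at an adjusted p = 0.181), with 167, 418, 538 and 529.5 CPM in KDAC7 H709A and 248, 246, 263 and 201 CPM in KDAC4 H976Y. The proliferation marker MKI67 was not called (log2 fold change 0.59 ± 0.20 at an adjusted p = 0.0711), with 625, 554, 520.5 and 925 CPM in KDAC7 H709A and 420.1, 439, 423 and 461 CPM in KDAC4 H976Y. The mitotic kinase PLK1 was called (log2 fold change 0.50 ± 0.15 at an adjusted p = 0.0439). PLK1 did not pass once any 1 of KDAC4 H803A replicates 2 and 3, KDAC4 H976Y replicates 1, 2, 3 and 4, KDAC7 H709A replicates 2, 3 and 4 and WT TMP195 replicates 1, 2 and 3 was left out (adjusted p up to 0.125 with 1 library left out, and 0.000446 to 0.241 over the alternatives).

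Sterol and fatty acid synthesis genes had 5 higher and 0 lower of 29, 17.2% beside 12.5% of all genes, and 5 and 1 without replicates 1 and 4. In that second fit 5.1% of all genes were higher and 3.98% lower. Of the 5 calls 2 held when any single library was left out. SREBF2, the master regulator of sterol synthesis, had 298, 403, 351 and 271 CPM in KDAC7 H709A, against 148, 162, 156 and 137 CPM in KDAC4 H976Y (log2 fold change 1.13 ± 0.16 at an adjusted p = 0.000634). LSS, lanosterol synthase, had 199, 175, 165 and 113 CPM in KDAC7 H709A, against 78.5, 82.5, 78.8 and 70.2 CPM in KDAC4 H976Y (log2 fold change 1.07 ± 0.18 at an adjusted p = 0.00203). For both, no libraries overlapped. Mevalonate kinase (MVK) was higher (log2 fold change 0.72 ± 0.18 at an adjusted p = 0.0199). The call of MVK ended with any 1 of these left out, KDAC4 H976Y replicates 1 and 3 (adjusted p up to 0.0642 with 1 library left out, and 0.000694 to 0.0897 over the alternatives). FASN was not called (log2 fold change 0.57 ± 0.23 at an adjusted p = 0.13), with 1394, 1190.0, 1118 and 682 CPM in KDAC7 H709A and 772, 792, 740.1 and 651 CPM in KDAC4 H976Y.

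NRF2 targets and glutathione genes had 0 higher and 7 lower of 31, and hypoxia and glycolysis genes 1 higher and 7 lower of 30. This is 22.6% and 26.7% called, beside 12.5% of all genes and 5.19% lower. Without replicates 1 and 4 the counts were 0 higher and 3 lower of 32 tested for the NRF2 list. For the hypoxia list they were 1 higher and 3 lower of 30. Of all genes in that fit 5.1% were higher and 3.98% lower. With any single library left out 3 of the 7 and 4 of the 8 calls held. Their list medians were -0.55 and -0.52. Aldose reductase (AKR1B1) had 33.7, 42.2, 50.9 and 28.7 CPM in KDAC7 H709A, against 90.7, 84.5, 91.4 and 76.2 CPM in KDAC4 H976Y (log2 fold change -1.14 ± 0.21 at an adjusted p = 0.0031). Ferritin light chain (FTL) had 443, 799, 708 and 774 CPM in KDAC7 H709A, against 1609, 1705, 1695 and 943 CPM in KDAC4 H976Y (log2 fold change -1.13 ± 0.24 at an adjusted p = 0.0075). The call of FTL was lost with GC and length offsets (adjusted p = 0.126, 8.4e-06 to 0.327 over the alternatives). AKR1C1, which shares reads with near-identical paralogs, was lower (log2 fold change -2.13 ± 0.46 at an adjusted p = 0.00849), but not without replicates 1 and 4 (-1.73 at an adjusted p = 0.0612, 3.51e-06 to 0.0612 over the alternatives). Thioredoxin reductase TXNRD1 was not called (log2 fold change -0.32 ± 0.31 at an adjusted p = 0.554). ALDOC, a glycolytic aldolase, had 2.03, 6.25, 8.70 and 3.44 CPM in KDAC7 H709A, against 31.96, 30.6, 35.1 and 14.8 CPM in KDAC4 H976Y (log2 fold change -2.46 ± 0.43 at an adjusted p = 0.00242). PFKFB4, which makes the activator of phosphofructokinase, was lower (log2 fold change -1.64 ± 0.32 at an adjusted p = 0.00512), with 15.6, 17.7, 18.0 and 9.27 CPM in KDAC7 H709A and 45.9, 46.7, 45.0 and 51.5 CPM in KDAC4 H976Y. CA12, a membrane carbonic anhydrase induced by hypoxia, went the other way, with 4.34, 16.1, 15.02 and 9.64 CPM in KDAC7 H709A, against 1.27, 1.60, 1.62 and 1.44 CPM in KDAC4 H976Y (log2 fold change 2.92 ± 0.38 at an adjusted p = 0.000417). GAPDH was not called (log2 fold change -0.53 ± 0.30 at an adjusted p = 0.28), with 2203, 3362, 3465 and 3914 CPM in KDAC7 H709A and 4851, 5245, 5654 and 2971 CPM in KDAC4 H976Y. In the list of amino acid and unfolded protein response genes 2 of 28 were higher and 0 lower, or 7.14%, namely the arginine transporter SLC7A1 on chromosome 13 (log2 fold change 1.44 ± 0.22 at an adjusted p = 0.00109) and ATF5 (log2 fold change 0.62 ± 0.19 at an adjusted p = 0.0482). ATF5 was not called when any 1 of KDAC4 H803A replicate 2, KDAC4 H976Y replicates 1, 2, 3 and 4, KDAC7 H709A replicates 1, 2 and 4 and WT TMP195 replicates 1, 2 and 3 was left out (adjusted p up to 0.137 with 1 library left out, and 0.00707 to 0.326 over the alternatives).

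Mitochondrially encoded mRNAs had 12 higher and 0 lower of 13, 92.3% beside 12.5% of all genes, with a list median log2 fold change of 3.25. MT-ND6, the subunit encoded on the light strand, had 3257, 1137, 870.4 and 2045 CPM in KDAC7 H709A, against 25.2, 26.6, 29.7 and 88.4 CPM in KDAC4 H976Y (log2 fold change 5.43 ± 0.57 at an adjusted p = 9.42e-05). MT-ND2 had 9048, 4401, 3530.0 and 7410.0 CPM in KDAC7 H709A, against 194, 209.5, 219 and 499 CPM in KDAC4 H976Y (log2 fold change 4.44 ± 0.45 at an adjusted p = 8.36e-05). MT-CO1, the most abundant, had 36660.0, 12230.0, 11540.0 and 26540.0 CPM in KDAC7 H709A, against 2965, 3109, 3332 and 6622 CPM in KDAC4 H976Y (log2 fold change 2.44 ± 0.46 at an adjusted p = 0.00391). Within KDAC7 H709A, replicates 1 and 4 were higher than replicates 2 and 3 for all 3, and within KDAC4 H976Y replicate 4 was highest. The member not called was MT-CO3, with 8195, 2838, 2386 and 4039 CPM in KDAC7 H709A and 1970.0, 1901, 1818 and 3796 CPM in KDAC4 H976Y (log2 fold change 0.88 ± 0.43 at an adjusted p = 0.21). Without replicates 1 and 4 the count was 10 and 0 of 13 tested, beside 5.1% and 3.98% of all genes. Mitochondrial ribosomal RNA ran the opposite way, at 0.000288% to 0.345% of counts in KDAC7 H709A and at 16.1% to 31.5% in KDAC4 H976Y, and its part in these calls was not tested. MTRNR2L1, a nuclear gene that resembles mitochondrial 16S ribosomal RNA and shares reads with it, had 20.4, 0, 0 and 0.0838 CPM in KDAC7 H709A and 5350.0, 5183, 5540.0 and 11300.0 CPM in KDAC4 H976Y.

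Nuclear genes of the respiratory chain had 0 higher and 8 lower of 30, and cytosolic ribosomal proteins 0 higher and 11 lower of 43. This is 26.7% and 25.6%, beside 12.5% of all genes called and 5.19% lower. The numbers lower were 5 and 7 without replicates 1 and 4, where 3.98% of all genes were lower. With any single library left out 4 of the 8 and 6 of the 11 calls held. The complex I subunit NDUFA1 had 6.27, 7.72, 10.4 and 9.77 CPM in KDAC7 H709A, against 46.5, 46.3, 51.8 and 30.1 CPM in KDAC4 H976Y (log2 fold change -2.35 ± 0.26 at an adjusted p = 0.00014). NDUFA2 had 5.89, 9.72, 10.1 and 10.7 CPM in KDAC7 H709A, against 29, 34.0, 30.6 and 19.6 CPM in KDAC4 H976Y (log2 fold change -1.64 ± 0.22 at an adjusted p = 0.000529). Here KDAC4 H976Y replicate 4 was the lowest of its group. The ATP synthase subunit ATP5F1B was not called (log2 fold change -0.30 ± 0.33 at an adjusted p = 0.619), with 199, 379.8, 522 and 428 CPM in KDAC7 H709A and 445, 543, 587 and 304 CPM in KDAC4 H976Y. RPS27A, which encodes ubiquitin fused to a ribosomal protein, had 95.5, 172, 203 and 172 CPM in KDAC7 H709A, against 546, 525, 610.1 and 309 CPM in KDAC4 H976Y (log2 fold change -1.63 ± 0.25 at an adjusted p = 0.00118). RPS18 had 138, 244, 273 and 378 CPM in KDAC7 H709A, against 903, 937, 1002 and 529 CPM in KDAC4 H976Y (log2 fold change -1.71 ± 0.30 at an adjusted p = 0.00293). RPS2 had 920.1, 1689, 1728 and 2069 CPM in KDAC7 H709A and 1638, 1703, 1771 and 937 CPM in KDAC4 H976Y and was not called (log2 fold change 0.08 ± 0.28 at an adjusted p = 0.892). These are short transcripts, and length moved with the calls in general. The median longest transcript of protein-coding genes was 2322 bases for those called lower, 4766 bases for those called higher and 3723 bases for those tested. With GC and length offsets 11 respiratory chain and 10 ribosomal protein genes were lower and 0 higher. In that fit 1514 of all 17780 genes tested were lower, beside 923 without the offsets. The part of length in these lower calls was not tested further.

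Histones made during replication are near-identical copies and share reads, and they had 1 higher and 4 lower of 22, 22.7% beside 12.5% of all genes, but 0 higher and 1 lower with GC and length offsets. With these offsets 1595 of all 17780 genes tested were higher and 1514 lower. HIST1H2BK had 41.6, 25.5, 32.8 and 51.1 CPM in KDAC7 H709A, against 155, 174, 173 and 111 CPM in KDAC4 H976Y (log2 fold change -2.02 ± 0.24 at an adjusted p = 0.000236). HIST1H1E was lower (log2 fold change -1.03 ± 0.18 at an adjusted p = 0.00283), with 233, 172, 164 and 274 CPM in KDAC7 H709A and 436, 471, 436 and 374 CPM in KDAC4 H976Y. Both calls were lost with GC and length offsets (adjusted p = 0.117 and 0.254, with ranges of 1.3e-14 to 0.175 and 1.72e-07 to 0.291 over the alternatives). Histone-modifying enzymes had 3 higher and 0 lower of 45, 6.67% beside 12.5%. They were the demethylase KDM4C on chromosome 9 (log2 fold change 0.85 ± 0.13 at an adjusted p = 0.00132) and the methyltransferases NSD1 (log2 fold change 1.33 ± 0.28 at an adjusted p = 0.00765) and EZH2 (log2 fold change 0.88 ± 0.22 at an adjusted p = 0.0208). EZH2 did not pass once any 1 of KDAC4 H976Y replicates 1, 2 and 3 and KDAC7 H709A replicate 4 was left out (adjusted p up to 0.0738 with 1 library left out, and 4.37e-05 to 0.135 over the alternatives). KMT2D was not called (log2 fold change 0.68 ± 0.42 at an adjusted p = 0.329), with 719.6, 347, 231 and 221 CPM in KDAC7 H709A and 213, 218, 204 and 314 CPM in KDAC4 H976Y. NSD1 and EZH2 were not called without replicates 1 and 4 (0.79 at an adjusted p = 0.0922 and 0.73 at an adjusted p = 0.135, with ranges of 5.23e-05 to 0.162 and 4.37e-05 to 0.135 over the alternatives).

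Among actin-binding and contractile genes 1 of 20 was higher and 1 lower, and intermediate filament genes 1 and 1 of 13. These shares, 10% and 15.4%, are near the 12.5% of all genes, and 0 of the 2 actin-list calls held when any single library was left out. The neurofilament gene NEFL had 31.5, 10.1, 13.4 and 37.1 CPM in KDAC7 H709A and at most 0.2165 CPM in KDAC4 H976Y, and replicates 2 and 3 were the lower of its KDAC7 H709A libraries. The hair keratin KRT81 had 154, 192, 135 and 128 CPM in KDAC7 H709A and 399, 451, 396 and 341 CPM in KDAC4 H976Y (log2 fold change -1.38 ± 0.31 at an adjusted p = 0.0119), and was not called without replicates 1 and 4 (-1.27 at an adjusted p = 0.0763, 8.33e-06 to 0.0763 over the alternatives). Filamin A (FLNA) was lower (log2 fold change -0.60 ± 0.18 at an adjusted p = 0.0471). The call of FLNA ended with any 1 of these left out, KDAC4 H803A replicates 2 and 3, KDAC4 H976Y replicates 1, 2 and 3, KDAC7 H709A replicates 2, 3 and 4 and WT TMP195 replicates 1, 2 and 3 (adjusted p up to 0.129 with 1 library left out, and 0.000522 to 0.492 over the alternatives). Non-muscle myosin MYH9 was not called (log2 fold change -0.53 ± 0.26 at an adjusted p = 0.203). Of the markers of other cell types, LCP1, a leukocyte actin-bundling protein on chromosome 13, was higher (log2 fold change 1.84 ± 0.32 at an adjusted p = 0.00246), with 68.3, 200.4, 260.1 and 169 CPM in KDAC7 H709A and 50.4, 52.9, 57.2 and 33.8 CPM in KDAC4 H976Y. Of the 10 mesenchymal markers tested, FN1 and S100A6 (log2 fold change -1.73 ± 0.25 at an adjusted p = 0.000776) were lower and 0 higher, 20% called beside 12.5% of all genes. S100A6 was not called with GC and length offsets (adjusted p = 0.13, 9.8e-12 to 0.286 over the alternatives). PTPRC, which defines leukocytes, had 0 counts in all 8 libraries, and 2 of the 8 blood markers were at 0 throughout. The summed blood markers ran from 74.7 to 263 CPM in KDAC7 H709A and from 43.7 to 62.0 CPM in KDAC4 H976Y, epithelial markers from 2.6 to 13.8 and 2.82 to 4.74 CPM, endothelial markers from 5.95 to 15.3 and 8.03 to 16.0 CPM, and neural markers from 150 to 256 and 203 to 300.0 CPM. Of the 14 tested markers in these 4 lists LCP1 and the tubulin gene TUBB3 (log2 fold change -0.90 ± 0.27 at an adjusted p = 0.0476) were called, of 36 listed. This count stands beside 12.5% of all genes called. The part of these markers in the other results was not tested. TUBB3 was not called when any 1 of KDAC4 H803A replicate 2, KDAC4 H976Y replicates 1, 2 and 3, KDAC7 H709A replicates 1, 2, 3 and 4 and WT TMP195 replicates 1, 2 and 3 was left out (adjusted p up to 0.143 with 1 library left out, and 3.63e-05 to 0.554 over the alternatives).

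Some transcripts were detected in 1 group only. Among the 8 largest increases by the rule for named genes, TUBA3C, CD300E, ZNF22, CNTN3, PRDM6 and TUSC1 had 0 counts in all KDAC4 H976Y libraries. The neuronal adhesion gene CNTN3 had 13.4, 13.8, 18.6 and 15.9 CPM in KDAC7 H709A, at least 161-fold higher. The zinc-finger gene ZNF22 had 14.7, 10.6, 13.2 and 46.4 CPM in KDAC7 H709A, at least 263-fold higher, with replicate 4 the highest. TUSC1, on chromosome 9, had 10.9, 6.07, 5.13 and 4.78 CPM in KDAC7 H709A, at least 62.6-fold higher. TUBA3C, on chromosome 13, shares reads with near-identical paralogs and had 30.5, 39.8, 52.1 and 49.7 CPM in KDAC7 H709A, at least 461-fold higher. PRDM6, a transcriptional repressor of smooth muscle, had 25.7, 3.38, 0.939 and 0.461 CPM in KDAC7 H709A, at least 54.7-fold higher over the group. Replicates 2 to 4 of KDAC7 H709A were far lower for PRDM6. In the other direction CNTN1, a relative of CNTN3, had 0, 0.173, 0.0626 and 0 CPM in KDAC7 H709A, against 15.6, 16.2, 20.6 and 11.7 CPM in KDAC4 H976Y, a ratio of 343-fold with a counting interval of 117 to 1670.0. The 2 contactins were thus each detected mainly in opposite groups. The glycosyltransferase GALNT13 had 3 counts in KDAC7 H709A, against 13.5, 11.1, 11.4 and 8.24 CPM in KDAC4 H976Y, a ratio of 232-fold with a counting interval of 78.7 to 1130.0. The myotubularin phosphatase MTMR1 had 0.869, 0.0868, 0.0626 and 0.252 CPM in KDAC7 H709A, against 29.6, 27.3, 30.6 and 28.2 CPM in KDAC4 H976Y (log2 fold change -6.60 ± 1.01 at an adjusted p = 0.00121). The zinc-finger gene ZNF239 had 1 count in KDAC7 H709A, against 6.05, 6.49, 5.20 and 4.53 CPM in KDAC4 H976Y. HEPH and DOCK8 were at most 0.193 CPM in every KDAC7 H709A library and at least 5.56 CPM in every KDAC4 H976Y library, and the unnamed protein-coding gene AC026464.6 had 0, 0, 0.313 and 0 CPM in KDAC7 H709A, against 5.63, 6.49, 10.8 and 3.71 CPM in KDAC4 H976Y. Over all genes tested, 17 had at least 1 CPM in each KDAC7 H709A library and no count in KDAC4 H976Y, and 13 the reverse.

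Many genes differed widely inside KDAC7 H709A. Of the tested genes 1961 differed at least 4-fold among the KDAC7 H709A libraries and 82 among the KDAC4 H976Y libraries. The 8 protein-coding genes with the largest range of log2(CPM + 1) within KDAC7 H709A are given without a test because they were chosen for that range. PXDN, a peroxidase that cross-links collagen IV, had 76.7, 0, 0 and 116 CPM in KDAC7 H709A replicates 1 to 4 and 0 counts in KDAC4 H976Y. ARHGAP4, a GTPase-activating protein, had 248, 0.173, 0.125 and 30.02 CPM in KDAC7 H709A and at most 0.206 CPM in KDAC4 H976Y. The proteoglycan CSPG4 had 103, 2.34, 1.19 and 52.6 CPM in KDAC7 H709A, against 42.4, 43.7, 48.8 and 36.7 CPM in KDAC4 H976Y. In KDAC7 H709A these 3 were high in replicates 1 and 4 and at most 2.34 CPM in replicates 2 and 3. The transporter SLC43A3 showed the reverse, with 0.772, 102, 109 and 1.34 CPM in KDAC7 H709A, against 61.1, 65.5, 71.3 and 52.7 CPM in KDAC4 H976Y. CPNE7, a copine, had 81.5, 0, 0 and 8.51 CPM in KDAC7 H709A, against 21.4, 20.9, 18.1 and 32.5 CPM in KDAC4 H976Y. The GABA receptor subunit GABRA2 had 303, 21.9, 22.9 and 1.76 CPM in KDAC7 H709A, against 0.563, 0.957, 1.52 and 0.618 CPM in KDAC4 H976Y. Like CD300E, a myeloid receptor with 124, 12.8, 13.2 and 1.09 CPM in KDAC7 H709A, and HOXB13, it was highest in replicate 1, near-equal in replicates 2 and 3 and lowest in replicate 4.

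**Figure D4:**
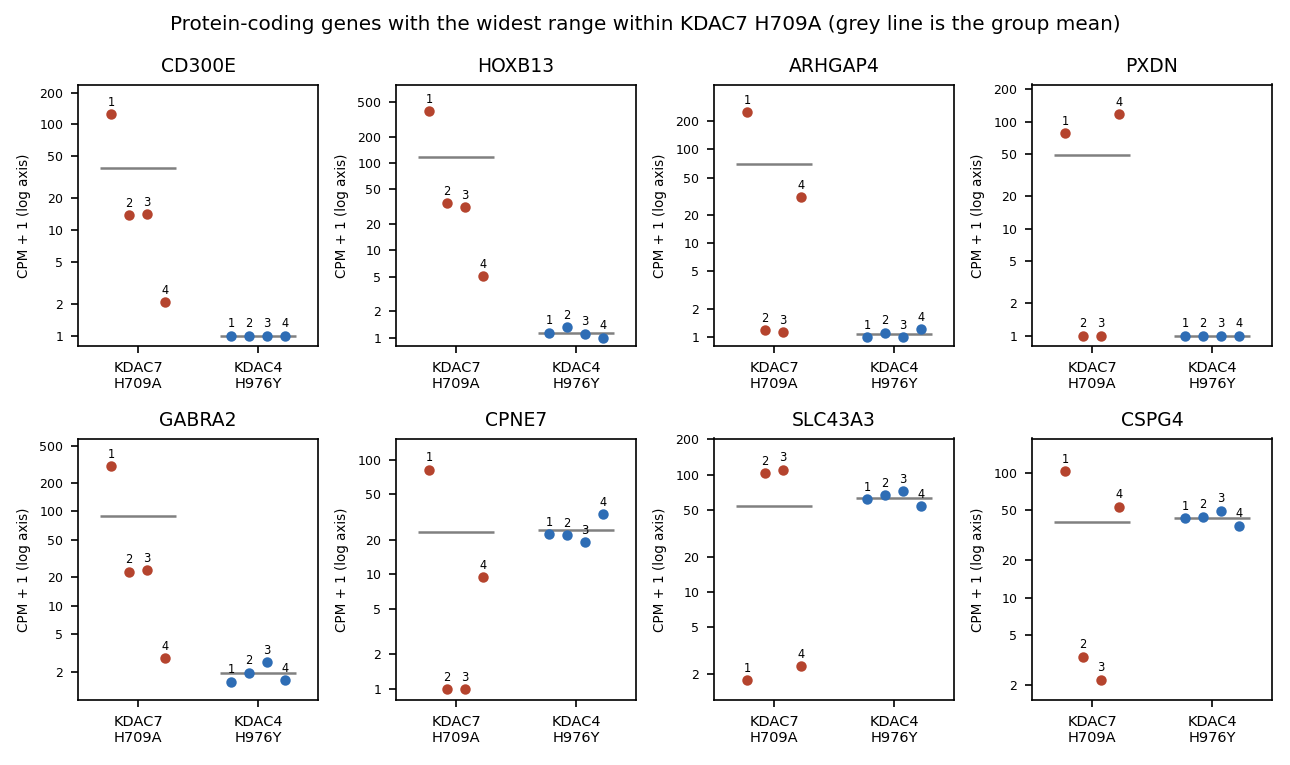
CPM + 1 on a log axis in each library for the 8 protein-coding genes with the widest range within KDAC7 H709A, KDAC7 H709A at the left and KDAC4 H976Y at the right, numbered by replicate, with the group mean in grey. PXDN had 0 counts in KDAC7 H709A replicates 2 and 3 and 76.7 and 116 CPM in replicates 1 and 4, and replicates 2 and 3 lie together in all 8 panels.

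Calls were uneven along the genome. On chromosome 13, 117 genes were higher and 1 lower of 330 tested, which is 35.8% called beside 12.5% over all genes, with a median log2 fold change of 1.00. Chromosome 9 had 100 higher and 18 lower of 726, or 16.3%, with a median of 0.44. On chromosome 6 there were 93 higher and 22 lower of 863, or 13.3%, with a median of 0.23. Outside these 3 chromosomes 11.8% of genes were called, 985 higher and 882 lower of 15861. Among genes described above, SPRY2, GAS6, LATS2, SLC7A1, LCP1 and TUBA3C lie on chromosome 13 and KLF4, TNC, TUSC1, PTCH1 and KDM4C on chromosome 9, while PTGES and DOCK8 on chromosome 9 were lower. On chromosome 6 lie SRF, CTGF, DLL1, SOX4 and TNFAIP3, which were higher, and RPS18, HIST1H2BK and HIST1H1E, which were lower. The part of these chromosome-wide shifts in the values of those genes was not tested.

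**Figure D5:**
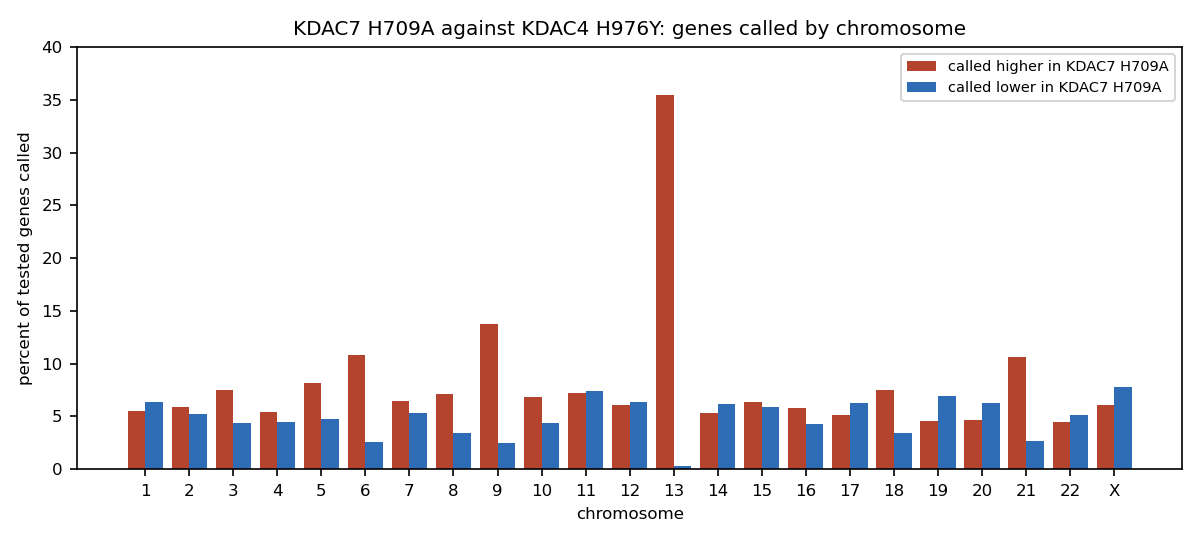
Percent of tested genes called higher (red) or lower (blue) in KDAC7 H709A relative to KDAC4 H976Y on each chromosome. On chromosome 13, 117 of 330 genes were called higher and 1 lower.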

How the data were processed

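Total RNA of HT1080 cells, depleted of ribosomal RNA, was sequenced as paired reads, per the labels' protocols. The deposited values are expected counts per gene that the authors made, and the submitters' processing notes name Trimmomatic 0.39, Bowtie2 2.4.5, RSEM 1.3.3, DESeq2 1.38.2 and GRCh38 without their roles. The deposited table has 15 columns of values. One deposited column, of other content than counts and labelled KDAC4 H803A replicate 4, equals transcript length minus a constant within 0.02 bases for 7367 of 7612 genes with 1 transcript and was left out. It belongs to neither group compared.

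Expected counts were rounded to whole numbers. All 14 count libraries entered 1 model in edgeR 4.0.16 (R 4.3.3) with TMM scaling, filterByExpr (minimum count 10, minimum total 15), quasi-likelihood F tests and Benjamini-Hochberg adjustment over all 17780 genes tested. The common dispersion was 0.179. Depth set the precision of low genes, since 1 CPM stood for 4.86 to 23.9 counts in the 8 libraries compared. Alternatives used DESeq2 1.42.0, limma 3.58.1 (voom with quality weights), other scalings and filters, GC and length offsets fitted with mgcv 1.9.3, a replicate block, and sets of libraries left out. Gene names and coordinates came from GENCODE release 29 (57055 of 60675 IDs matched) and promoter sequences from RefSeq on GRCh38.p14.

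The members and the 38 gene lists were chosen with earlier results of these data known. Named genes were HDAC4, HDAC5, HDAC7 and HDAC9, the 8 largest called log2 fold changes in each direction among protein-coding genes without overlap and with at least 5 CPM on average in the higher group, the 5 most abundant called protein-coding genes, up to 3 called members of each list by smallest adjusted p with its most abundant uncalled member, and the 8 widest within KDAC7 H709A. Further list members in the text were chosen after their values were seen. The result of 1 list is not reported here.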

Additional observations from a re-analysis of the deposited data

Results flagged for a closer look

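A library stood apart from the other 3 of its group, by a gap beyond Dixon's 95% critical value, in 59 of 324 sets of 4 values tested. Chance flags about 1 in 20 among independent sets not chosen by their values. The sets here came from the same libraries. CD300E, HOXB13, ARHGAP4, GABRA2 and CPNE7 were chosen for their range within KDAC7 H709A. HEPH, ZNF239, GALNT13, DOCK8, WNT5B and AC026464.6 had counts in only 1 KDAC7 H709A library, so their KDAC7 H709A sets had to be flagged. The rate of 1 in 20 is therefore not compared with the 59 of 324.

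KDAC4 H976Y replicate 4 was the library apart in 29 of the 59 flagged sets. It was highest for HDAC4 at 21.8 CPM, MTRNR2L1 at 11300.0 CPM, KMT2D at 314 CPM, and the mitochondrial mRNAs MT-CO1 at 6622 CPM, MT-ND4 at 2059 CPM, MT-ND5 at 1297 CPM, MT-ND2 at 499 CPM, MT-ND6 at 88.4 CPM, MT-ND1 at 517 CPM and MT-CO3 at 3796 CPM. Its share of mitochondrial ribosomal RNA was 31.5% and of mitochondrial mRNA 1.41%, both the highest of its group, and its share of protein-coding counts, 54.1%, the lowest. It was lowest for PHLDA1 at 579.6 CPM, EPHB2 at 176 CPM, MMP14 at 1227 CPM, TGFBR2 at 269 CPM, FLNA at 2673 CPM, TNFRSF10B at 390.3 CPM, IFI27 at 2.06 CPM and B2M at 197 CPM. It was also lowest for PTGES at 27.4 CPM, FTL at 943 CPM, HSP90B1 at 531 CPM, NDUFB10 at 39.96 CPM, RPS2 at 937 CPM, S100A6 at 463 CPM, FN1 at 1487 CPM and TUBB3 at 112 CPM.

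KDAC7 H709A replicate 1 was apart in 17 sets. It was highest for CD300E at 124 CPM, PRDM6 at 25.7 CPM, HOXB13 at 392 CPM, MTRNR2L1 at 20.4 CPM, DOCK8 at 0.193 CPM, EGR1 at 119.5 CPM, HOXB6 at 74.4 CPM and LAMB3 at 1193 CPM. It was also highest for ID3 at 16.3 CPM, CLDN4 at 12.8 CPM, ARHGAP4 at 248 CPM, GABRA2 at 303 CPM and CPNE7 at 81.5 CPM, and for mitochondrial ribosomal RNA at 0.345% of counts. It was lowest for VIM at 3529 CPM, RPLP2 at 129 CPM and the protein-coding share at 81.9%.

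KDAC7 H709A replicate 4 was highest for ZNF22 at 46.4 CPM, CDH11 at 108 CPM, GALNT13 at 0.126 CPM, RND3 at 113 CPM, SERPINB2 at 3.69 CPM and WNT5B at 0.0419 CPM. KDAC7 H709A replicate 2 was highest for HEPH and ZNF239, both at 0.0868 CPM, MEF2D at 140.0 CPM and PTGES at 1.56 CPM, and replicate 3 for AC026464.6 at 0.313 CPM. KDAC4 H976Y replicate 2 was highest for MEF2D at 80.2 CPM and replicate 1 lowest for NEFL at 0.141 CPM.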

How the results depend on the processing

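Of the 156 genes named by rule, 114 were called. All 114 kept their sign under all 29 alternatives, and 76 were called under each of them. Most of the 114 were named because the main fit called them, and the alternatives reuse the same libraries. The kept signs are therefore not independent support. Counts moved more. The number called was 2218, with 1295 higher and 923 lower. DESeq2 called 3394 with 1484 lower, GC and length offsets gave 1514 lower, and no filter on low counts gave 552 lower. Voom with quality weights called 7278, with 3668 higher, 3610 lower and 469 list members in place of 187. Leaving out 1 of the 14 libraries at a time gave 1215 to 3440 called, 730 to 2005 higher, 485 to 1435 lower, 122 to 272 list members and 96 to 118 named genes. The count was 3440 without KDAC4 H803A replicate 1 and 1242, 1215 and 1221 without KDAC4 H976Y replicates 1, 2 and 3. Of 3 alternatives chosen after seeing the data, KDAC7 H709A replicates 2 and 3 with KDAC4 H976Y alone gave 4911 called, 2313 higher, 2598 lower and 351 list members, and leaving out KDAC7 H709A replicates 1 and 4 and KDAC4 H803A replicate 1 gave 5829, 3019, 2810 and 386. The log2 fold change of HDAC4, at 0.04 with all libraries, was reversed to -1.53, -1.55, -1.58 and -1.60 in the 4 alternatives without KDAC7 H709A replicates 1 and 4 and to -1.12 with quality weights. SLC43A3, at -0.24, was reversed to 0.75 without those 3 libraries and to 0.71 with KDAC7 H709A replicates 2 and 3 and KDAC4 H976Y alone. Leaving out 1 library at a time gave -0.76 to 0.36 for HDAC4 and -0.86 to 0.17 for SLC43A3. The cause of these shifts was not tested. With the replicate number as a block, 1322 genes were called, 776 higher and 546 lower. Same-numbered libraries had correlations of their deviations of -0.32, 0.08, 0.46 and -0.49, and other-numbered ones of -0.56 to 0.59. The labels state no pairing, and these correlations cannot settle whether the numbers pair the samples. Depth limits genes under about 1 CPM, which rest on a few counts in KDAC4 H976Y replicate 4.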
